A study of Mus musculus with 7 samples.

Results

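Marker genes of the cardiac fibroblast, 10 in number, were read in bulk RNA sequencing of mouse heart. Pdgfra and Tcf21 stand for the resting fibroblast, and Meox1, Fap, Cthrc1, Acta2, Tagln, Cilp, Comp and Ltbp2 for its activation. They were taken by name from the gene column of the expression table, where all 10 of 10 were found among 23420 rows, and all 10 passed the filter on low values that left 15236 genes for testing. The control group was 4 mice with the genotype Ctla4+/+;Pdcd1-/-, and the ICI-myocarditis group was 3 mice with Ctla4+/-;Pdcd1-/-. ICI stands for immune checkpoint inhibitor, a drug class that blocks the T cell receptors encoded by these genes, and the mutant mice model the heart inflammation seen as its side effect. All 7 animals were 3 to 6 weeks old, were untreated and carried the Pdcd1 deletion, so no wild-type heart was part of the comparison. The tissue was flash-frozen cardiac ventricle by the extraction protocol and whole heart by the tissue label.

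Fibroblasts make the collagen-rich matrix of the heart wall. At rest they are recognised by the growth factor receptor PDGFR-alpha (Pdgfra) and the transcription factor TCF21. After injury they divide and secrete new matrix, and some become myofibroblasts, which build contractile fibres of smooth muscle actin (Acta2) and transgelin (Tagln). Both contractile genes are also expressed at high level by the smooth muscle of coronary vessels. In later scar, fibroblasts can take up genes otherwise typical of cartilage and tendon, such as Comp and Cilp.

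Reads assigned to genes numbered 20931730 to 39037176 per library. Pdcd1 lay between 2.50 and 244 normalized counts in controls but between 1096 and 1481 in ICI-myocarditis, and Ctla4 between 29.2 and 113 and between 251 and 373, so counts per gene did not check the genotype labels. The tissue label was read against heart muscle and atrial genes. Myh6, the main myosin of the adult mouse heart, reached at least 402804 normalized counts in every library. Of 5 genes of the atrial list, Bmp10 was at 0 in all 7 libraries, Sln was at most 3.70, Myl7 ran from 2.47 to 48.0 with its highest value in control 3, Myl4 from 47.1 to 72.6 and Nr2f2, which veins also express, from 452 to 1001. The 6 leukocyte genes summed to 5524 to 12465 normalized counts in controls, highest in control 2, and to 30559 to 41341 in ICI-myocarditis, with all 6 called higher, and their part in the results below was not tested. The labels do not say whether the 7 hearts came from separate litters or preparation days, so p-values measure the spread between these libraries.

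Of the activation markers, 3 genes of secreted proteins and the transcription factor gene Meox1 rose in the myocarditis hearts, while the contractile genes and the protease gene Fap had lower means and did not pass the test. Meox1, Cthrc1, Cilp and Ltbp2 rose, by 2.10-fold to 21.1-fold as a ratio of group means. Acta2, Tagln and Fap were at 0.656, 0.637 and 0.533 of the control mean. Acta2, Comp and Pdgfra did not separate the groups. Of the 10 genes, 4 passed an adjusted p of 0.05 upward in limma, a test fitted over all 15236 genes, among which 15.7% passed in either direction and 11.7% upward. In the downward direction 0 of 10 passed, against 4.00% of all genes, and 2 of the 10 did so at an unadjusted limma p under 0.05, against 12.4% of all genes (17.7% upward). By count-based tests on the recovered reads, edgeR called 4 higher and 0 lower, against 10.1% and 3.47% of all genes. DESeq2 called 5 higher and 2 lower, against 14.2% and 8.39%. Bulk values cannot tell apart a change in the number of fibroblasts from a change in RNA per fibroblast.

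**Figure D1:**
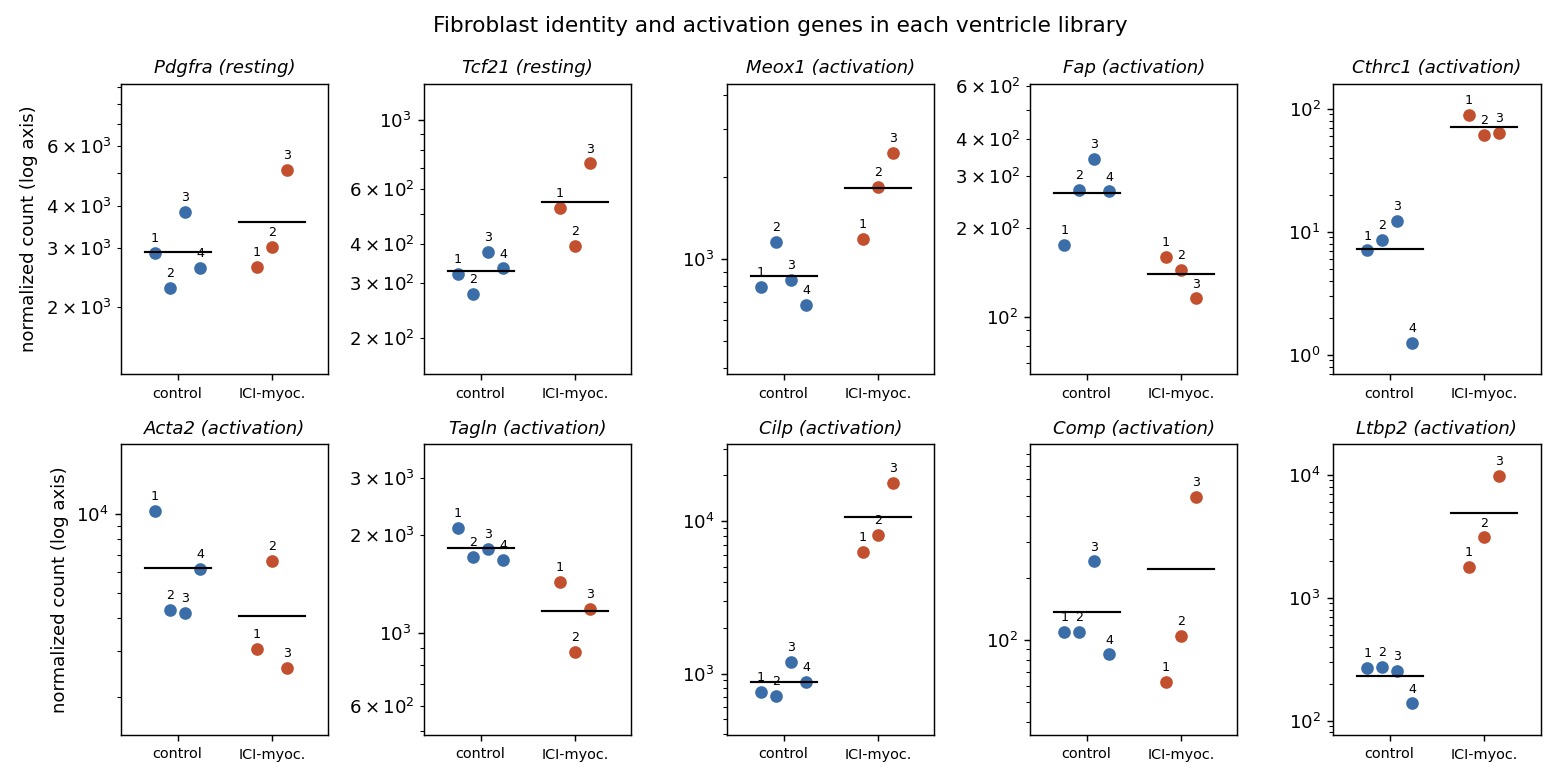
Normalized counts (log axis) of the 10 genes in the 4 control and 3 ICI-myocarditis libraries. Each point is 1 library marked with its replicate number, and black lines are group means. Cilp, Ltbp2 and Cthrc1 show wide gaps between the groups, whereas Pdgfra, Acta2 and Comp overlap.

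Pdgfra encodes the receptor for PDGF ligands that marks fibroblasts of the heart (chr5:75152292-75198215 in GRCm38, the build of all gene positions here). It had 2903, 2278, 3831 and 2619 normalized counts in controls 1 to 4 and 2628, 3018 and 5111 in ICI-myocarditis 1 to 3. The groups overlapped, with only ICI-myocarditis 3 above every control. Group means were 2908 ± 666 (SD, n = 4) and 3586 ± 1335 (SD, n = 3), and the log2 fold change was 0.27 (± 0.280 SE, adjusted p = 0.574 by limma). Without ICI-myocarditis 3 it was -0.02.

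Tcf21 encodes a basic helix-loop-helix transcription factor needed for the formation of cardiac fibroblasts from the epicardium (chr10:22817281-22820174). Controls held 322, 276, 376 and 334 normalized counts, and ICI-myocarditis libraries held 521, 395 and 724. Every myocarditis library lay above every control, by a narrow margin for ICI-myocarditis 2 over control 3. The log2 fold change of 0.70 (± 0.242 SE) missed the threshold in limma (adjusted p = 0.0823), and 17.3% of all genes tested had their groups apart in that direction. The wider list of 12 resting fibroblast genes moved both ways, with 2 called higher and 1 lower by limma, against 11.7% and 4.00% of all genes. Its median log2 fold change was -0.05 against -0.02 over all genes. Dcn, the abundant proteoglycan decorin, had 14281 ± 6256 normalized counts in controls against 14824 ± 4461 in ICI-myocarditis, with a log2 fold change of 0.11 (± 0.368 SE, adjusted p = 0.877 by limma). The 2 genes called higher were Mfap5, a microfibril protein, at 2.12 and Pcolce, which aids the trimming of procollagen, at 0.82 on the log2 scale (limma adjusted p = 0.00424 and 0.0280). The gene called lower was Scara5, at -1.14 (± 0.298 SE, adjusted p = 0.0321 by limma). At an unadjusted limma p under 0.05, 2 of the 12 were higher and 3 lower, against 17.7% and 12.4% of all genes. DESeq2 called 2 higher and 3 lower, against 14.2% and 8.39%. Pcolce lost its call without control 3 or 4 and without ICI-myocarditis 2 or 3 (limma adjusted p up to 0.127).

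Meox1 encodes a homeobox transcription factor that promotes the activated state of cardiac fibroblasts (chr11:101877510-101894374). It had 794, 1160, 840 and 683 normalized counts in controls against 1191, 1840 and 2450 in ICI-myocarditis. The groups did not overlap, but control 2 at 1160 nearly met ICI-myocarditis 1 at 1191. The groups of 17.3% of all genes tested were apart in that direction, as were those of Cthrc1, Cilp and Ltbp2. Meox1 rose by 1.04 on the log2 scale (± 0.279 SE, adjusted p = 0.0355 by limma). This was the least stable of the 4 calls. It passed in 10 of 18 alternatives and was lost without control 1, 3 or 4 and without ICI-myocarditis 2 or 3 (limma adjusted p up to 0.148). Its paralog Meox2, a homeobox gene of the vessel wall, moved the other way, from 1292 ± 398 to 539 ± 138 normalized counts (log2 change -1.24 ± 0.279 SE, adjusted p = 0.0178 by limma), a call lost without control 3, without ICI-myocarditis 1 or 3 and with scaling by total reads (largest limma adjusted p 0.0827).

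Cthrc1, which encodes a small secreted glycoprotein made by fibroblasts that repair injured heart muscle, was close to absent in controls (chr15:39076932-39087121). It was covered by 7, 7, 11 and 1 reads in controls 1 to 4 and by 87, 84 and 83 in ICI-myocarditis 1 to 3. In normalized counts the controls were at 7.06, 8.63, 12.3 and 1.25 and the myocarditis hearts at 89.0, 60.9 and 63.4. The lowest myocarditis library thus stood several-fold above the highest control, and the 3 myocarditis libraries lay close together. Cthrc1 rose 9.73-fold as a ratio of means, by 3.36 on the log2(normalized count + 1) scale (± 0.612 SE, adjusted p = 0.00816 by limma), and passed in all 18 alternatives. The single read in control 4 makes the exact size of the fold change uncertain. Of the controls only control 3 reached 10 normalized counts, so Cthrc1 met the filter on low values through the myocarditis libraries.

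Cilp encodes cartilage intermediate layer protein, a secreted matrix protein that fibroblasts of the stressed heart produce (chr9:65265180-65280605). Normalized counts were 759, 712, 1185 and 883 in controls and 6305, 8084 and 17767 in ICI-myocarditis. Every myocarditis library exceeded every control several-fold, and ICI-myocarditis 3 was far above the other 2. Means were 885 ± 213 and 10719 ± 6169 (SD, n = 4 and 3), a ratio of 12.1, and the log2 fold change was 3.48 (± 0.350 SE, adjusted p = 0.00251 by limma). Cilp2, its closest paralog, stayed low, with 35.7 ± 13.8 and 20.0 ± 5.84 normalized counts (log2 change -0.76 ± 0.443 SE, adjusted p = 0.289 by limma).

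Ltbp2 had the widest change of the 10 genes (chr12:84783212-84876532). It encodes a microfibril protein of the latent TGF-beta binding protein family that, unlike its relatives, does not bind latent TGF-beta. Controls had 266, 271, 252 and 138 normalized counts, with control 4 lowest. The myocarditis hearts had 1772, 3087 and 9811, so they differed several-fold among themselves and all lay above the controls. The ratio of means was 21.1 and the log2 fold change 4.07 (± 0.516 SE, adjusted p = 0.00317 by limma). Without ICI-myocarditis 3 the log2 fold changes of Ltbp2, Cilp and Cthrc1 were 3.38, 3.04 and 3.43, all still called (limma adjusted p = 0.00969, 0.00969 and 0.0361). The relatives of Ltbp2 did not follow it: Ltbp1, Ltbp3 and Ltbp4 had log2 fold changes of -0.52, 0.47 and -0.38, none past the threshold (limma adjusted p = 0.152, 0.336 and 0.548).

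Cilp and Ltbp2 both rose, and the stretches upstream of their starts are shown for that reason, from RefSeq in GRCm38.p6, 5′ to 3′ on the strand of the gene, and cover the bases 250 to 51 before the RefSeq start (chr9:65264930-65265129, plus strand, and chr12:84876542-84876741, minus strand).
Cilp: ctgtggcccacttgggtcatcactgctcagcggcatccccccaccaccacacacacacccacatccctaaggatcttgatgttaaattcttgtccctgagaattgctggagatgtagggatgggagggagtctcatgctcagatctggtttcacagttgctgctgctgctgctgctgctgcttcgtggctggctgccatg
Ltbp2: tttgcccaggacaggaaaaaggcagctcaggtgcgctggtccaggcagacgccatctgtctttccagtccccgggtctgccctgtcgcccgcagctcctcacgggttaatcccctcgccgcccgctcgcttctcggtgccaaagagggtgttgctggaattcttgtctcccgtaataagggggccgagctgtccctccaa
For Cilp the RefSeq start is that of the gene position given above, whereas for Ltbp2 it lies 41 bases inside the gene, so that window covers the bases 209 to 10 before the start in GENCODE M21. The table of promoters held 5 of the 10 genes, namely Pdgfra, Tcf21, Acta2, Cilp and Ltbp2. Both strands of this window were searched for the CArG box, which serum response factor binds, the MCAT element CATTCC of TEAD factors, the AP-1 site TGANTCA and the SMAD-type sequence CAGACA. Each motif was counted on its own, also where its letters could overlap another. Both sequences are in lower case throughout because neither window held a match. The windows of Pdgfra and Tcf21, which limma did not call, also held no match. Among 32851 promoter windows of the same length, 1.16% held a CArG box, 10.7% CATTCC, 5.57% TGANTCA and 14.3% CAGACA. The Acta2 window held 1 match to CATTCC and 1 to CAGACA, and is not printed because it overlaps the Acta2 gene as annotated in GENCODE M21.

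Comp encodes a pentameric matrix glycoprotein of cartilage and tendon that also marks fibroblasts of mature scar (chr8:70373558-70382066). It had 109, 110, 240 and 85.1 normalized counts in controls against 62.4, 104 and 493 in ICI-myocarditis. ICI-myocarditis 3 was the highest and ICI-myocarditis 1 the lowest of all 7, so the groups overlapped fully. The log2 fold change was 0.24 (± 0.654 SE, adjusted p = 0.847 by limma), and it was -0.63 without ICI-myocarditis 3. Of 8 tested genes of mature scar, cartilage and tendon limma called 1, against 15.7% of all genes in either direction. It was Sox9, a transcription factor of cartilage and of activated fibroblasts (log2 change 1.58 ± 0.298 SE, adjusted p = 0.00898 by limma). Summed over the 9 genes of that list the range was 563 to 1082 normalized counts in controls, highest in control 3, and 979 to 2854 in ICI-myocarditis, highest in ICI-myocarditis 3. The same libraries, control 3 and ICI-myocarditis 3, were the highest of their groups in the sum of 6 epicardium genes (1727 and 1419 normalized counts). ICI-myocarditis 1, the lowest library in Comp, was close behind in that sum at 1318. The part of tendon, valve or epicardial tissue in the values of Comp was not tested. Of the tendon genes in the list, Tnmd, a membrane protein of mature tendon cells, was at most 6.14 normalized counts, and the transcription factor gene Scx ran from 105 to 200 in controls and from 159 to 259 in ICI-myocarditis. The related thrombospondin Thbs4 rose by 3.56 on the log2 scale (± 0.403 SE, adjusted p = 0.00251 by limma).

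Fap encodes fibroblast activation protein, a surface serine protease used as a target for imaging activated fibroblasts (chr2:62500943-62574075). Controls had 174, 268, 341 and 265 normalized counts, and ICI-myocarditis libraries had 160, 144 and 115. All 3 myocarditis hearts lay below all controls, with control 1 close to them, and 11.3% of all genes tested had their groups apart in that direction. The log2 fold change of -0.88 (± 0.276 SE) missed the threshold in limma (adjusted p = 0.0621). It passed without control 1 (-1.06, limma adjusted p = 0.0394), in DESeq2 (adjusted p = 0.0152) and in limma-voom (adjusted p = 0.0131), and was below 0 in all 18 alternatives. Dpp4, the closest relative of Fap, had a log2 fold change of 0.65 (limma adjusted p = 0.269).

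Acta2, which encodes the alpha-actin of smooth muscle and myofibroblasts, had the highest level per length of exon of the 10 genes in controls (chr19:34241090-34255590). Control libraries held 10232, 4290, 4191 and 6176 normalized counts and myocarditis libraries 3053, 6612 and 2584. The groups overlapped, since ICI-myocarditis 2 exceeded 3 of the 4 controls. The log2 fold change was -0.64 (± 0.408 SE, adjusted p = 0.338 by limma), and its lowest adjusted p over 18 alternatives was 0.137. Actins are a conserved family: the coding sequence of Acta2 was 85.4% identical to that of Acta1 and 82.5% to that of Actc1. The longest stretch shared with Acta2 was 29 bases in Acta1, 23 in Actc1, 29 in the smooth muscle actin Actg2, 47 in Actb and 56 in Actg1, against reads of 150 bases. Identity was computed only for Acta1 and Actc1, whose coding sequences have the length of Acta2. Actc1, the main actin of heart muscle, and Acta1 were not called, with log2 fold changes of -0.48 and -0.09 (limma adjusted p = 0.490 and 0.917).

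Tagln encodes transgelin, an actin-binding protein of smooth muscle and myofibroblasts (chr9:45929619-45936058). Controls held 2111, 1721, 1815 and 1680 normalized counts, and the myocarditis libraries 1438, 878 and 1186. The groups were apart, all myocarditis libraries being lower, as were those of 11.3% of all genes tested. The log2 fold change was -0.67 (± 0.209 SE, adjusted p = 0.0594 by limma). It passed in 3 of 18 alternatives, namely DESeq2, limma-voom and without ICI-myocarditis 1 (adjusted p = 0.0306, 0.0101 and 0.0496).

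Acta2 and Tagln were read beside other genes of smooth muscle. Of 9 such genes limma called 3 lower, against 4.00% of all genes, and 0 higher, and 6 did not pass. At an unadjusted limma p under 0.05, 7 were lower, against 12.4% of all genes, and 0 higher. Lower calls numbered 3 by edgeR and 5 by DESeq2, against 3.47% and 8.39%, and both called 0 higher. All 9 had a log2 fold change below 0, and their median was -0.85. Myh11, the smooth muscle myosin, fell from 3318 ± 1709 to 1006 ± 286 normalized counts (log2 change -1.59 ± 0.436 SE, adjusted p = 0.0383 by limma), and Cnn1, calponin, from 110 ± 47.1 to 33.9 ± 11.3 (-1.64 ± 0.392 SE, adjusted p = 0.0227 by limma). Myh11 lost its call without control 1, 2 or 3, without any 1 of the 3 myocarditis libraries, with scaling by total reads and in limma without trend and robust variance, and Cnn1 without control 1 or 3, without ICI-myocarditis 2 or 3 and with that scaling (largest limma adjusted p 0.115 and 0.0962). Summed over the list, controls held 16907 to 25821 normalized counts and ICI-myocarditis 10136 to 13155. Of 7 pericyte genes, 3 were called lower by limma, against 4.00% of all genes, and 0 higher. Rgs5, a pericyte gene, fell by 1.48 on the log2 scale (± 0.254 SE, adjusted p = 0.00651 by limma), and the list summed to 53174 to 68480 against 26120 to 32682. The sums of both lists, like Tagln but unlike Acta2, were lower in every myocarditis library than in every control. Heart muscle genes moved the same way: all 7 listed had a log2 fold change below 0, at a median of -0.87. Limma called 0 of these 7, and DESeq2 called 3 lower, against 8.39% of all genes. Their sum overlapped between groups, with 1233639 to 2477353 normalized counts in controls and 742151 to 1292092 in ICI-myocarditis. The part of heart muscle in the smooth muscle and pericyte sums was not tested.

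Acta2 and Tagln were also set against Myh11 within each library. The log2 level of Acta2 minus that of Myh11 was 0.93, 0.20, 0.57 and 2.24 in controls and 2.09, 2.71 and 1.003 in ICI-myocarditis. For Tagln the same difference was -1.35, -1.12, -0.64 and 0.36 in controls and 1.004, -0.20 and -0.12 in ICI-myocarditis. In both genes control 4 lay among the myocarditis libraries, so the groups overlapped. The mean differences between groups were 0.95 for Acta2 and 0.91 for Tagln. Neither passed an exact two-sided permutation test over 35 splits (p = 0.229 and 0.200, both 0.229 adjusted over the 2 genes). The smallest p this design can give is 0.0286.

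**Figure D2:**
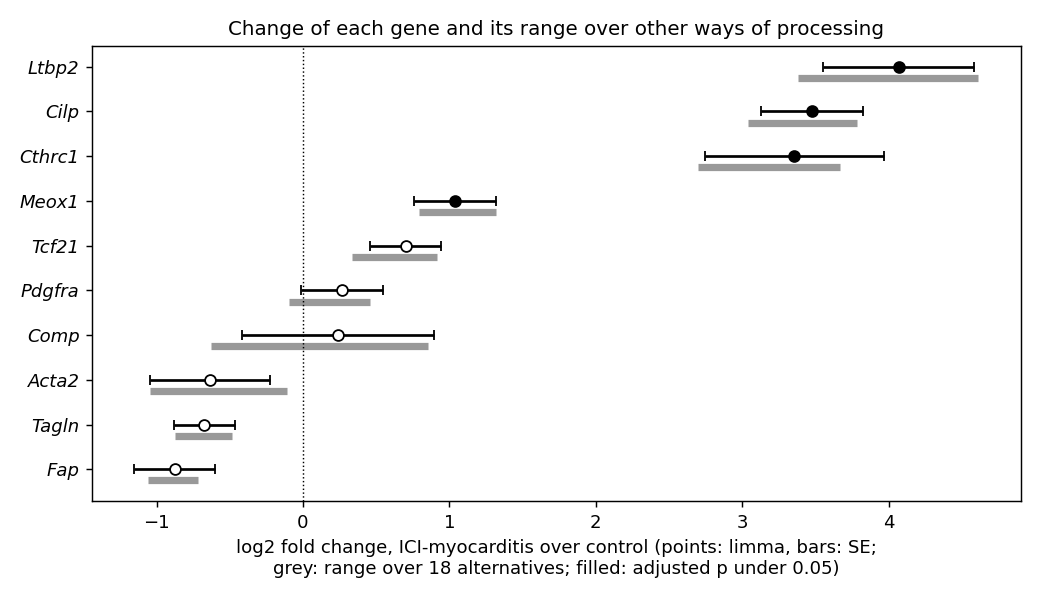
Log2 fold changes of the 10 genes, ICI-myocarditis over control, with their SE from limma, above grey bars that span the values under 18 alternatives. Filled points passed an adjusted p of 0.05. Ltbp2, Cilp and Cthrc1 lie at 2.702 or higher under all 18 alternatives, and only the bars of Pdgfra and Comp cross 0.

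Setting each gene against Pdgfra in the same library gives the level per unit of a resting marker, as a description without a test. The log2 level of Cilp minus that of Pdgfra ran from -1.93 to -1.57 in the 4 controls and from 1.26 to 1.797 in the 3 myocarditis hearts. Cilp thus passed from below to above Pdgfra in normalized counts, and the wide spread of Cilp among myocarditis hearts was narrower on this scale, ICI-myocarditis 3 being high in both genes. Ltbp2 relative to Pdgfra ran from -4.24 to -3.06 and from -0.57 to 0.94, and Cthrc1 from -10.2 to -7.89 and from -6.31 to -4.87. For Tcf21 the ranges were -3.34 to -2.97 and -2.93 to -2.33, which just failed to overlap. Meox1, Fap, Acta2, Tagln and Comp overlapped between groups relative to Pdgfra. Group means differed by 0.77 for Meox1 and by -0.03 for Comp, and by -0.90, -0.94 and -1.14 for Acta2, Tagln and Fap.

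**Figure D3:**
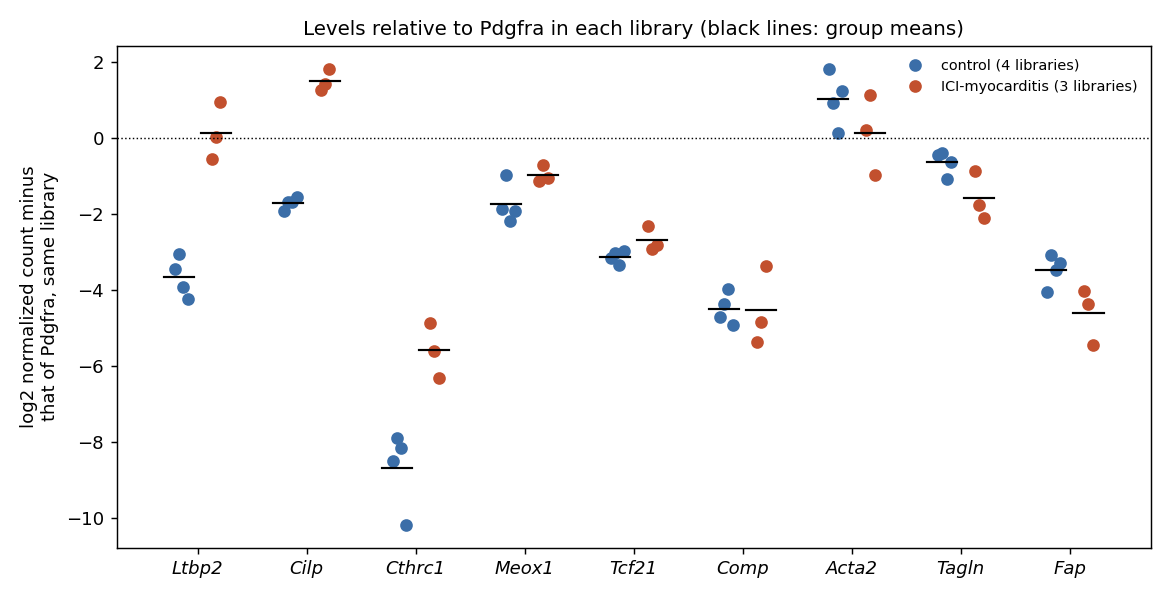
Log2 normalized count of each gene minus that of Pdgfra in the same library, with control libraries on the left and ICI-myocarditis libraries on the right of each pair and black lines at group means. Ltbp2, Cilp and Cthrc1 moved by 3.80, 3.21 and 3.09 between the group means.

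Levels between genes were compared per length of exon. In controls Acta2 led at 2833 ± 1286 normalized counts per kb (SD, n = 4), followed by Tagln at 921 ± 97.9, Meox1 at 390 ± 91.8 and Pdgfra at 290 ± 66.5. Cilp was at 208 ± 50.02, Tcf21 at 139 ± 17.5, Fap at 46.3 ± 12.02, Comp at 45.8 ± 23.7 and Ltbp2 at 28.3 ± 7.74, and Cthrc1 was last at 4.59 ± 2.88. Neighbours from Meox1 to Cilp overlapped in range, as did Fap, Comp and Ltbp2. In ICI-myocarditis Cilp moved from the fifth to the first place at 2521 ± 1451 per kb (SD, n = 3), though its range overlapped that of Acta2 at 1859 ± 1003. Without ICI-myocarditis 3 Acta2 stayed first at 2201 per kb and Cilp was second at 1692. Ltbp2 moved from the ninth place to the fourth, at 597 ± 527, next to Tagln at 587 ± 141. Without ICI-myocarditis 3 it was at 297 per kb, in the fifth place behind Tagln at 582. Fap moved from the seventh to the tenth place, at 24.7 ± 3.97, below Cthrc1 at 44.6 ± 9.77. For scale, Postn, a matricellular gene of activated fibroblasts, was at 257 ± 58.0 per kb in controls and 2045 ± 724 in ICI-myocarditis.

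**Figure D4:**
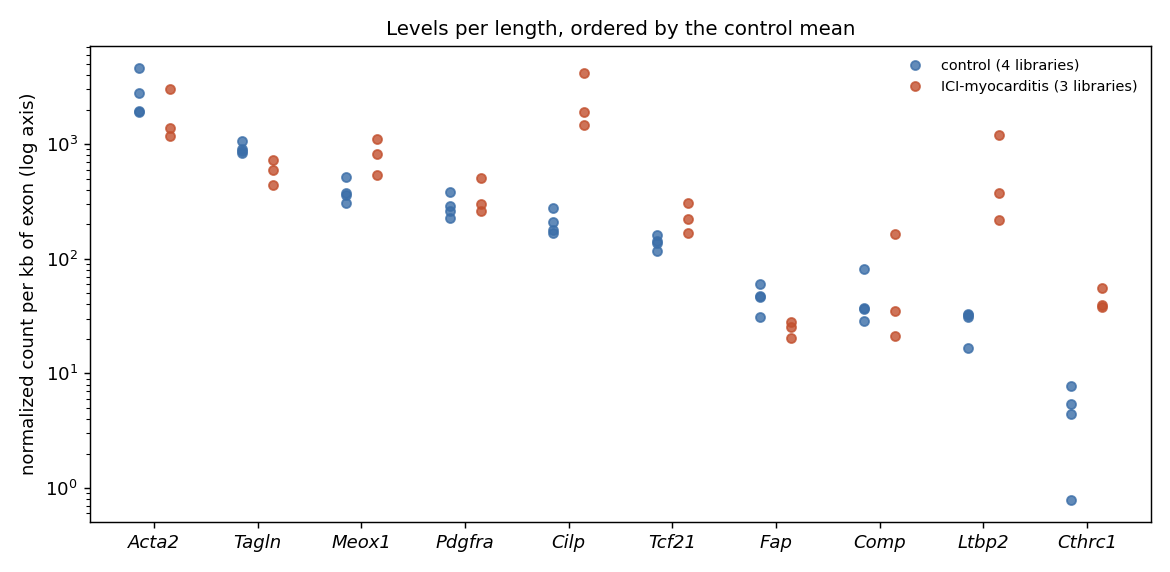
Normalized counts per kb of exon (log axis) of the 10 genes in each library, ordered by the control mean. Blue points are the 4 control libraries and red points the 3 ICI-myocarditis libraries, and Cilp in ICI-myocarditis reaches the level of Acta2.

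Beside the 8 activation markers, of which 4 were called higher at a median log2 fold change of 0.64, stand other genes of the activated fibroblast. Of 17 further activation genes limma called 12 higher and 0 lower, against 11.7% and 4.00% of all genes, with a median of 1.79. The 1 gene below 0 was Lrrc15, a marker of activated fibroblasts, which went from 1128 ± 370 to 397 ± 332 normalized counts. Its groups overlapped, and its log2 fold change was -2.01 (± 0.696 SE, unadjusted p = 0.0175, adjusted p = 0.0842 by limma). By edgeR and DESeq2, 0 of the 17 were called lower. Tnc, the injury matrix protein tenascin-C, rose from 267 ± 237 to 7751 ± 2721 normalized counts (log2 change 5.15 ± 0.558 SE, adjusted p = 0.00251 by limma), and Col1a1, the main fibrillar collagen, from 11467 ± 5723 to 41072 ± 15594 (1.87 ± 0.426 SE, adjusted p = 0.0185 by limma). Col1a1 lost its call without control 3 and without ICI-myocarditis 2 or 3 (largest limma adjusted p 0.0789). The median over all genes tested was -0.02.

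The signals that drive fibroblast activation were read from lists of TGF-beta and PDGF genes. Beside each list stand the shares over all genes tested, 11.7% called higher and 4.00% lower by limma. Of 7 TGF-beta ligands and activators 3 were called higher, among them the ligand Tgfb2, from 469 ± 75.3 to 1184 ± 422 normalized counts (log2 change 1.29 ± 0.257 SE, adjusted p = 0.0107 by limma), and Thbs1, a secreted activator of latent TGF-beta, at 3.39 (± 0.383 SE, adjusted p = 0.00251 by limma). Tgfb1 had a log2 fold change of 1.01 (limma adjusted p = 0.0586) and Tgfb3 of 0.17 (limma adjusted p = 0.752). Among 7 receptors and SMAD mediators the receptor genes Tgfbr1 and Tgfbr2 rose, by 1.27 and 0.87 (limma adjusted p = 0.00871 and 0.0412), the latter in 11 of 18 alternatives. Tgfbr2 lost its call without control 1, 3 or 4 and without ICI-myocarditis 2 or 3 (limma adjusted p up to 0.176). Ctgf, a secreted TGF-beta target, rose by 2.10 (± 0.375 SE, adjusted p = 0.00760 by limma). It was the only called gene in a list of 9 that held targets of TGF-beta and serum response factor, against 15.7% of all genes in either direction. That list also held Srf itself, at -0.14 (limma adjusted p = 0.820). Of 6 genes of TGF-beta inhibitors limma called 0, at a median log2 fold change of 0.08. DESeq2 called 1 of these 6 higher, against 14.2% of all genes. Of the 4 PDGF ligand genes only Pdgfc, a ligand of the receptor made from Pdgfra, was called. It rose from 125 ± 35.9 to 445 ± 171 normalized counts (log2 change 1.81 ± 0.324 SE, adjusted p = 0.00766 by limma). Pdgfrb, the related receptor of mural cells, was at -0.45 (limma adjusted p = 0.328).

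**Figure D5:**
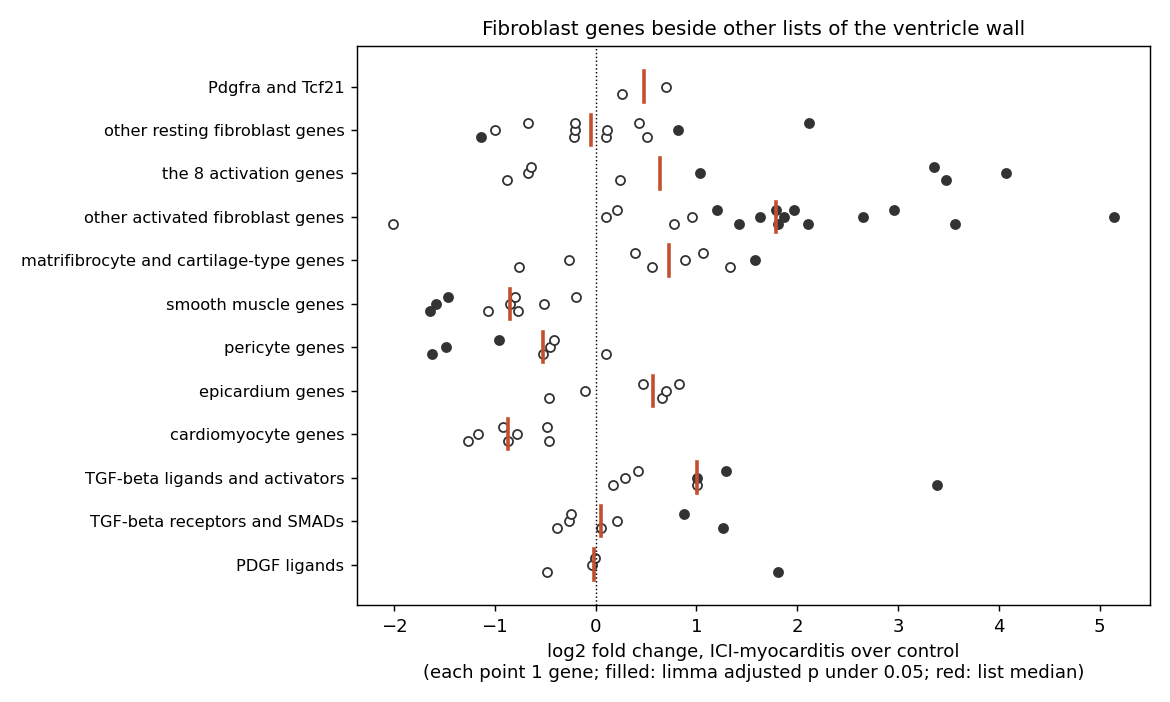
Log2 fold change, ICI-myocarditis over control, of each tested gene in 12 lists, with filled points for limma adjusted p under 0.05 and red lines at list medians. The 8 activation genes spread from -0.88 to 4.07, while all 9 smooth muscle genes lie below 0.

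In the authors' deposited table, whose comparison used the same 7 libraries, 5 of the 10 genes had an adjusted p below 0.05 upward and 2 downward, against 12.9% and 7.34% of the 16859 genes with an adjusted p there. There the authors' deposited table gave Tcf21 a log2 fold change of 0.74 (adjusted p = 0.0404), Fap -0.91 (0.0166) and Tagln -0.65 (0.0373), the 3 genes that limma placed just short of the threshold.

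Genes with the most similar pattern over the 7 libraries were looked up for 4 of the markers, as a description over libraries that share the split into groups. Nearest to Pdgfra were Hs3st3a1, Fgfr2 and Cpd (Pearson r = 0.975, 0.964 and 0.950), and nearest to Tcf21 were Dpep1, Galc and Wisp2 (r = 0.993, 0.990 and 0.983). Asns, Chst10 and Tnfrsf4 were nearest to Cthrc1 (r = 0.990, 0.986 and 0.985), and Mfhas1, Hr and Gfra2 to Acta2 (r = 0.983, 0.981 and 0.973).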

How the data were processed

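RNA of cardiac ventricle from 7 mice was sequenced from stranded total RNA libraries, paired-end, per the labels' protocols. STAR 2.7.3 and GRCm38 (mm10) are named in the submitters' processing notes, whereas the counting program, annotation and use of strand are not given in the sources used here. The deposited table holds a signal per library, gene read counts that the authors divided by 1 size factor, as its values show. Per the file headers, the authors' deposited table also gives a log2 fold change, its SE, a score (their test statistic) and the p-value, raw and adjusted. Of its rows, 27 had names turned into dates and were left out (0.143% of reads). Group and replicate came from each sample's title.

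All values were whole multiples of 1 step per library (within 0.1), 100% in each, so reads were recovered. In control 1 the step of 1.01 makes this a weaker sign. The main test, limma 3.58.1 in R 4.3.3, took log2(normalized count + 1), used trend and robust variance, and required 10 or more normalized counts in 3 or more libraries. It compared ICI-myocarditis with control, with Benjamini-Hochberg adjustment over all 15236 genes and a threshold of 0.05. Fold changes on this scale understate the change of low genes. The 18 alternatives were 2 pseudocounts, 2 filters, 2 scalings, edgeR 4.0.16 and DESeq2 1.42.0 on recovered reads, limma-voom, limma without trend, a replicate block and each library left out. Positions and exon lengths are from GENCODE M21 (GRCm38). Reads per library ranged from 20931730 to 39037176.

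The marker genes and all lists were chosen with earlier results of these data known. Named genes were the 10 markers, 2 genes of the lowest p per list, 18 set genes and 3 of the most similar pattern for 4 markers. Ltbp1, Ltbp3, Ltbp4, Dpp4, Bmp10, Myl7, Tnmd, Scx, Actb, Actg1, Myh6, Scara5 and Lrrc15 were added after their values were seen. Smtn is an alternative reference, and Pdcd1 and Ctla4 were named as the targeted genes.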

Additional observations from a re-analysis of the deposited data

Results flagged for a closer look

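Ltbp2 stood out within the controls. Control 4 was low, at 138 normalized counts against 252 to 271 in the other 3 controls. On the log2 scale its distance to the nearest of them was 0.893 of the whole spread, past the 95% limit of 0.829 that Dixon's test sets for 4 samples. Such a check was made for 66 results, of which 3.3 would pass by chance, and Ltbp2 was the only one that did. Ltbp2 was called higher without control 4 as well.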

How the results depend on the processing

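Ltbp2, Cilp and Cthrc1 were called higher in all 18 alternatives, and Meox1 in 10. The count of marker genes called higher was 3 to 5, and the count called lower was 2 with DESeq2 and with limma-voom and 0 to 1 with a library left out. Leaving out 1 library gave 827 to 2248 genes called higher and 156 to 1085 called lower over all genes, against 1783 and 609 with all 7. Genes called lower numbered 310 with scaling by total reads, 1279 with DESeq2 and 1516 with limma-voom. Scaling by total reads moved the median log2 fold change of all genes by 0.16, and Meox1 lost its call (limma adjusted p = 0.0551). Replicate numbers did not pair the libraries: deviations from group means correlated at -0.27, -0.21 and -0.08 for same-numbered pairs. With the replicate number as a block over 6 libraries, 3 marker genes were called, and 1385 genes were called higher and 372 lower. Among the genes the text describes, this fit ended the calls of Meox1, Pcolce, Col1a1 and Tgfbr2 (limma adjusted p = 0.0825, 0.153, 0.0752 and 0.208).

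Signs turned for these log2 fold changes, none of them called, and the cause was not tested. With limma-voom, Pdgfra was at -0.092, Comp at -0.57, Dcn at -0.43, Krt19 at -0.41, Msln at -0.51 and Srf at 0.074. With scaling by total reads, Acta1 was at 0.072, Srf at 0.024 and Myl4 at 0.019, and with the replicate block Acta1 was at 0.046. With 1 library left out at a time, the values ran for Pdgfra from -0.019 to 0.46, for Comp from -0.63 to 0.86, for Dcn from -0.12 to 0.37, for Tgfb3 from -0.11 to 0.47, for Acta1 from -0.46 to 0.11 and for Srf from -0.32 to 0.083. Acta2 and Tagln relative to Myh11 differed by 0.52 to 1.42 with a library left out, and by 0.21 and 0.17 with Smtn in place of Myh11 (exact permutation test, adjusted p = 0.657 for both). The size of this difference depends on the reference. Smtn fell by less, at a log2 fold change of -0.85, than Myh11 at -1.59. Cnn1, the other reference tried, was close to Myh11 at -1.64.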
